A study of Mus musculus with 6 samples.

Results

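The 42 genes described here encode collagen chains, and their expression was set between AC29 and AB1, a pair of mouse malignant mesothelioma cell lines. Mesothelioma arises from the mesothelium, the cell layer that covers the pleura and peritoneum. The genes were chosen by a rule on their names, with earlier results of these data known. A probe set entered where its single gene symbol was Col, a number, the letter a and a number. This held for 82 probe sets of 42 genes among 18193 genes measured. Each gene was read from its brightest probe set by mean value, and the other probe sets of 27 genes served as a check. Col28a1 and Col6a6, the other collagen chains in the RefSeq gene table, were not analysed here. The AC29 line is from the CBA strain and was used at passage 60, and the AB1 line is from BALB/c and was used at passage 40. The labels give female sex and an age of 6 to 8 weeks for both. Each line was sampled from 3 flasks grown without treatment and harvested near confluence, with 1 array per flask, so a p-value here sets the lines against flask-to-flask spread only. With 1 line per strain, the strain, the passage and any array batch cannot be told apart from the line.

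Collagens are trimers whose chains wind into a triple helix. Fibrillar collagens form the banded fibres of connective tissue, collagen IV forms the sheet of basement membranes, collagen VI forms beaded filaments around cells, collagens VIII and X form hexagonal nets, and fibril-associated collagens coat the fibres. A trimer takes its chains from a fixed set of partners, so the genes of partner chains are read side by side below. Mesothelial cells rest on a basement membrane and can make fibrillar collagen, and a matrix rich in collagen is a known feature of mesothelioma.

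Partner chains of collagen IV are encoded in pairs that are transcribed away from each other, and the sequences at the starts of the genes that differed between the lines are shown because both members of each pair differed in the same direction. The windows are from RefSeq (build GRCm38.p6), run 5′ to 3′ on the gene's own strand from 250 bases before the start site to 50 after it, and have in capitals each match to CCAAT, to the GC box GGGCGG and to TATAAA on either strand.
Col4a1, chr8:11312777-11313076, minus strand: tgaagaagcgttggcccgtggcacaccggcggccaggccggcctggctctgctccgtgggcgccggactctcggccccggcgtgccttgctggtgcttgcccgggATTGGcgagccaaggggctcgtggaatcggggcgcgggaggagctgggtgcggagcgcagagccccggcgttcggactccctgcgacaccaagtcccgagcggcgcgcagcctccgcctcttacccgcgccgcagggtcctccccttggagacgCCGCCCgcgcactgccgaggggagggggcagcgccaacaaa
Col4a2, chr8:11312555-11312854, plus strand: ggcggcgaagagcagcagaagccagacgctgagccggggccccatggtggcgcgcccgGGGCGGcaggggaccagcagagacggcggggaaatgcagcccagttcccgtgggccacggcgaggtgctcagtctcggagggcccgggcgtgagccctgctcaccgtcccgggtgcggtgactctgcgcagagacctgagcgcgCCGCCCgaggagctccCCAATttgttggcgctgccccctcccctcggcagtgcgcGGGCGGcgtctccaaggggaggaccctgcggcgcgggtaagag
Col4a5, chrX:141475169-141475468, plus strand: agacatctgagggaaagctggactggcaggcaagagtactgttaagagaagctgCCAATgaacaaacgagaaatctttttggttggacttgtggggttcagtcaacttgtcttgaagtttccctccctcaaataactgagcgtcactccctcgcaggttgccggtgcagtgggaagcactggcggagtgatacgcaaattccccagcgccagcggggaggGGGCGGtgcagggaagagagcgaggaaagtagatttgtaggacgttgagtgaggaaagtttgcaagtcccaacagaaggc
Col4a6, chrX:141474027-141474326, minus strand: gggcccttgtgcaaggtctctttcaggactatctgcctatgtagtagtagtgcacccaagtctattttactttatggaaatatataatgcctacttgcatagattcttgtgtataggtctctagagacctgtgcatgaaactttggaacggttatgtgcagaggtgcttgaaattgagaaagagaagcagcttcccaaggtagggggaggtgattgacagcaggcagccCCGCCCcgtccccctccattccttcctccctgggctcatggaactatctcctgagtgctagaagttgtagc
The start sites of Col4a1 and Col4a2 lay 21 bases apart on opposite strands, so that their windows shared 78 bases. The Col4a1 start had the higher coordinate, so the annotated first bases of these genes overlap. The start sites of Col4a5 and Col4a6 lay 1343 bases apart, with no such overlap. The windows of Col4a1 and Col4a2 were 74.0% and 73.7% G or C, and those of Col4a5 and Col4a6 52.7% and 48.3%. CCAAT was found once in the windows of Col4a1, Col4a2 and Col4a5 and not in that of Col4a6. The GC box was found 3 times in the Col4a2 window and once in each of the others, and TATAAA in none of these 4. The GC box of the Col4a1 window lies in the bases shared with Col4a2, so that site was counted for both genes. Of all 32851 windows, 37.4% held CCAAT, 35.7% the GC box and 13.6% TATAAA. Among the 36 windows of 33 collagen genes, 13 held CCAAT (36.1%), 22 the GC box (61.1%) and 5 TATAAA (13.9%). Matches that overlap each other were counted separately, and a match is a description of the letters only.

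All values below are log2 RMA intensities as deposited. A floor of 6.07 on that scale was the 95th percentile of 86 probe sets for olfactory, vomeronasal and taste receptors, and a value at or under it was taken as not above background. The array medians ran from 5.76 to 5.81. The median SD of the collagen genes above the floor was 0.13 in AC29 and 0.08 in AB1, against 0.13 and 0.08 for all genes above it. AC29 replicate 14 was the lowest of the AC29 arrays for 19 of 29 collagen genes above the floor in either line (65.5%) and for 43.1% of all such genes; without it, 7 chains were called higher in AC29 and 5 in AB1. Of 9 mesothelial markers, all 9 were above the floor in AC29, and 5 (Wt1, Upk3b, Krt8, Lrrn4 and Upk1b) were not in AB1, where Msln read 9.67 ± 0.10 (SD, n = 3). The mean level of the 9 ran from 10.98 to 11.19 on the AC29 arrays and from 6.62 to 6.71 on the AB1 arrays. Of 6 fibroblast markers, Pdgfrb was called, higher in AB1 (difference -4.15), and the other 5 were not called. Pdgfra (0.15), Pi16 (0.42) and Thy1 (0.18) differed toward AC29, and Dpt (-0.31) and S100a4 (-0.20) toward AB1. The median difference of the 6 was -0.028. Their mean level ran from 7.19 to 7.38 in AC29 and from 7.92 to 7.97 in AB1. The part of these markers in the collagen results was not tested. Of 5 leukocyte markers, Ptprc, Itgam and Adgre1 were under the floor in both lines, and Cd3e (7.01 in AC29 and 6.83 in AB1) and Csf1r (6.66 in AC29 and 6.56 in AB1) were above it on all arrays. Of 5 endothelial markers, Pecam1, Cdh5, Tek and Tie1 were under it, and Kdr (6.24 in AC29 and 6.35 in AB1) was above it on all arrays. Limma called none of these 10 between the lines, and 0 had an unadjusted p under 0.05. Over all genes 10.9% were called and 45.2% had an unadjusted p under 0.05. Most of the 10 were under the floor in both lines, so these counts are not read further. In whole cultures, fewer cells of a type and less RNA per cell cannot be told apart.

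In all, 12 collagen chains differed between the lines, in both directions. Of these, 7 were higher in AC29 (Col1a1, Col4a5, Col4a6, Col6a1, Col6a2, Col8a2 and Col14a1) and 5 were lower in AC29 and higher in AB1 (Col4a1, Col4a2, Col6a3, Col8a1 and Col10a1). The rule for a call was an adjusted p under 0.05 in limma together with a log2 difference of 1 or more in size, which is 2-fold. The 12 called of 42 chains make 28.6%, where 10.9% of all 18193 genes were called, 5.12% higher in AC29 and 5.82% higher in AB1. On none of the 12 did the arrays of the lines overlap, which the call rule itself favours. The smallest gap between the nearest arrays was 1.44 on the log2 scale. Over all 42 chains the arrays did not overlap for 26 (61.9%), against 50.1% of all genes. The median difference, AC29 minus AB1, was 0.0079 for the chains and -0.0047 for all genes, and the median size of the difference was 0.40 for the chains and 0.20 for all genes. The adjusted p-values of the 12 were at most 2.45e-05 and their standard errors ran from 0.0844 to 0.174.

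**Figure D1:**
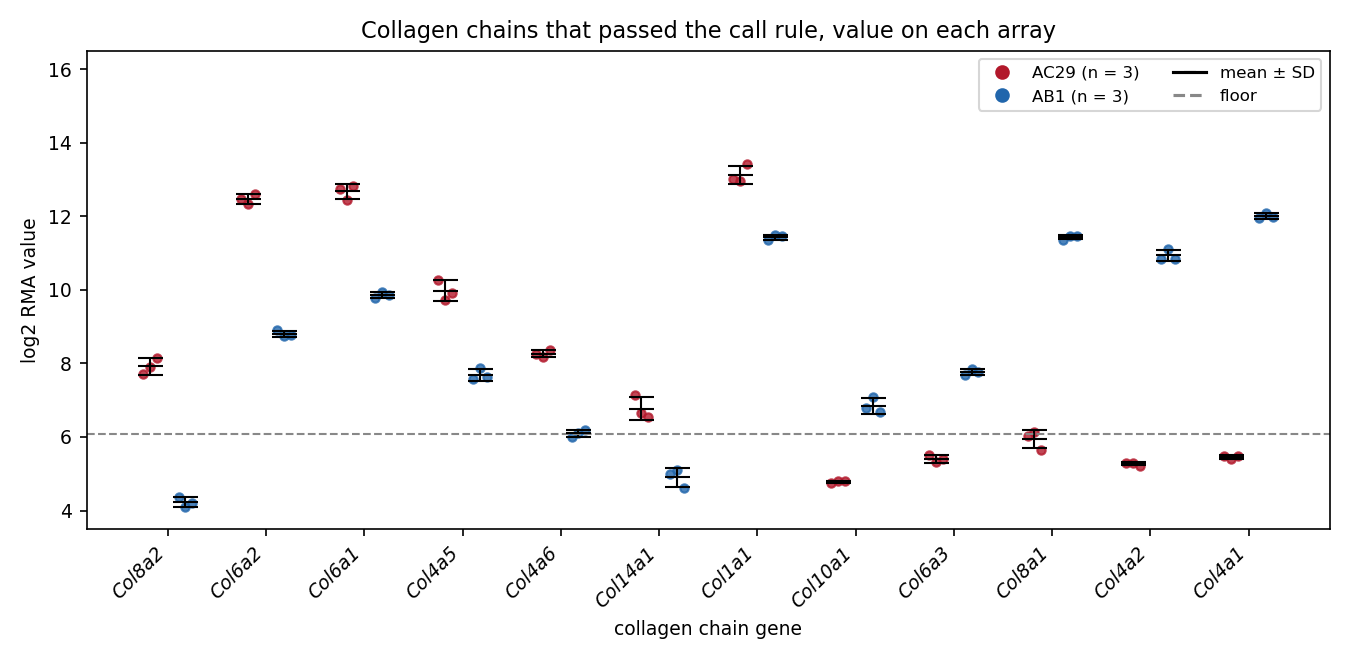
Log2 RMA values (vertical axis) of the 12 called collagen chains (horizontal axis) on each of 3 AC29 arrays (red, left of each pair) and 3 AB1 arrays (blue), with the mean and SD in black and the floor of 6.07 as a dashed line. The groups do not overlap for any of the 12, and Col4a1, Col4a2, Col6a3 and Col10a1 in AC29 and Col8a2 and Col14a1 in AB1 lie under the floor.

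The collagen IV genes formed opposite pairs. Col4a1 and Col4a2 encode the chains of the common basement membrane trimer, and both were far lower in AC29. Col4a1 read 5.48, 5.39 and 5.48 on the AC29 arrays, against 11.95, 12.10 and 11.97 on the AB1 arrays. Every AC29 array was under the floor and every AB1 array far above it, so by this probe set AB1 was at least 61.1-fold higher (log2 difference -6.56, SE 0.0844, adjusted p = 1.86e-10). Col4a2 read 5.29, 5.30 and 5.22 in AC29, against 10.85, 11.12 and 10.83 in AB1. It was likewise under the floor on all AC29 arrays and at least 29.1-fold higher in AB1 (log2 difference -5.66, SE 0.0995, adjusted p = 5.59e-10). Col4a2 had a single probe set, so this bound has no check by another. A second probe set of Col4a1 was above the floor in AC29 and gave a smaller difference of -3.77, which is 13.7-fold, with means of 6.79 in AC29 and 10.57 in AB1. The size of the Col4a1 difference therefore depends on the probe set, while its direction was the same on both, and no bound on the fold is given for the gene as a whole. Without any 1 AB1 array the second probe set was the brightest, and the difference was -3.67 to -3.85; with the first probe set kept it was -6.51 to -6.59.

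Col4a5 and Col4a6 encode chains that assemble with each other in the basement membranes of some epithelia and of smooth muscle, and both were higher in AC29. Col4a5 read 10.28, 9.73 and 9.92 in AC29, against 7.57, 7.88 and 7.63 in AB1. Both lines were above the floor, and AC29 was 4.88-fold higher (log2 difference 2.29, SE 0.146, adjusted p = 1.91e-06). Col4a6 read 8.26, 8.17 and 8.37 in AC29, against 5.99, 6.10 and 6.20 in AB1, which straddle the floor. The difference was 2.17 (SE 0.0938, adjusted p = 1.32e-07). The other probe sets of both genes also passed the rule, at 1.73 for Col4a5 and 2.42 for Col4a6. Col4a3 and Col4a4, the partner chains known from kidney, lung and inner ear, were under the floor in both lines. Their values lay between 4.08 and 4.95.

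The genes next to the pairs in which both chains were called did not pass the call rule. With 10 genes per pair, the counts of called genes are near the share over all genes and are not read as particular to these neighbours. Counts with an unadjusted p under 0.05 ran from 1 to 8 of 10 between the pairs, and nothing is concluded from them. Over all genes 45.2% had an unadjusted p under 0.05 and 10.9% were called. Neighbours were the nearest 10 measured protein-coding genes (5 on each side), with collagen genes left out. For Col4a1 and Col4a2, limma called none of them. Their differences ran from -0.60 to 0.29, and 4 had an unadjusted p under 0.05. For Col4a5 and Col4a6, which lie on chromosome X, limma called none of the nearest 10 either, with differences from -0.74 to 0.61, and 8 had an unadjusted p under 0.05. For Col6a1 and Col6a2, which are neighbours on chromosome 10, it called none of 10, with differences from -0.88 to 0.85, and 4 had an unadjusted p under 0.05. Beside Col3a1 and Col5a2 on chromosome 1, 1 of 10 was called higher in AC29 and 1 higher in AB1. Their differences ran from -1.86 to 2.35, and 8 had an unadjusted p under 0.05. Beside Col4a3 and Col4a4, 1 of 10 was called, higher in AB1, and 3 had an unadjusted p under 0.05. Beside Col9a1 and Col19a1 and beside Col6a4 and Col6a5 limma called none of 10, of which 4 and 1 had an unadjusted p under 0.05. Col18a1, which stands close to Col6a1 and as a collagen gene is not in these counts, differed by -0.94 where Col6a1 differed by 2.82.

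The chains of collagen VI did not move as one. Col6a1 and Col6a2 encode the shorter chains of the trimer and Col6a3 the long chain that completes it. Col6a1 read 12.74, 12.45 and 12.84 in AC29, against 9.77, 9.93 and 9.87 in AB1, a 7.05-fold higher level in AC29 (log2 difference 2.82, SE 0.113, adjusted p = 8.08e-08). Col6a2 read 12.47, 12.34 and 12.62 in AC29, against 8.90, 8.74 and 8.77 in AB1, which is 12.7-fold (log2 difference 3.67, SE 0.0990, adjusted p = 7.07e-09). Both genes were well above the floor in both lines. Col6a3 went the other way, with 5.51, 5.31 and 5.39 in AC29 and 7.68, 7.85 and 7.76 in AB1. AC29 was under the floor on all arrays, and Col6a3 was at least 3.24-fold higher in AB1 (log2 difference -2.36, SE 0.0909, adjusted p = 6.06e-08). Col6a1 and Col6a3 had 1 probe set each, so their directions have no check by another, whereas the other probe set of Col6a2 differed by 3.67. Col6a4 and Col6a5, whose chains are held to replace the long chain in some tissues, were under the floor in both lines, with differences of -0.24 and 0.07.

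The chains of collagen VIII were also opposite. Col8a1 and Col8a2 encode the chains of a net-forming collagen of vessel walls and of the cornea. Col8a1 read 6.04, 6.13 and 5.66 in AC29, of which 1 array exceeded the floor, against 11.36, 11.47 and 11.45 in AB1. The difference was -5.49 (SE 0.125, adjusted p = 2.47e-09), and no fold is given because the AC29 mean of 5.94 lay under the floor. The other probe sets of Col8a1 passed in the same direction at -4.61 and -3.12. Col8a2 read 7.71, 7.90 and 8.15 in AC29, against 4.38, 4.11 and 4.21 in AB1. All AB1 arrays were under the floor, and Col8a2 was at least 3.59-fold higher in AC29 (log2 difference 3.69, SE 0.126, adjusted p = 2.75e-08). Col8a2 had a single probe set.

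Col10a1, the collagen of growth plate cartilage, was low where it was seen. It read 4.75, 4.80 and 4.79 in AC29, against 6.79, 7.09 and 6.67 in AB1 (log2 difference -2.07, SE 0.114, adjusted p = 6.82e-07), at least 1.72-fold higher in AB1. The AB1 values exceeded the floor but not the 99th percentile for those receptors, 7.23. Of 7 cartilage and bone markers measured, Sp7 (8.01 ± 0.14 in AC29 and 5.59 ± 0.19 in AB1, SD, n = 3) was called, and it was higher in AC29. The other 6 were not called. Sox9 was lower in AC29 (6.07 ± 0.22 in AC29 and 6.89 ± 0.06 in AB1), but its difference of -0.82 was under the minimum (limma adjusted p = 0.000372). Acan, Matn1, Matn3, Cnmd and Ibsp differed by -0.14 to 0.087.

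**Figure D2:**
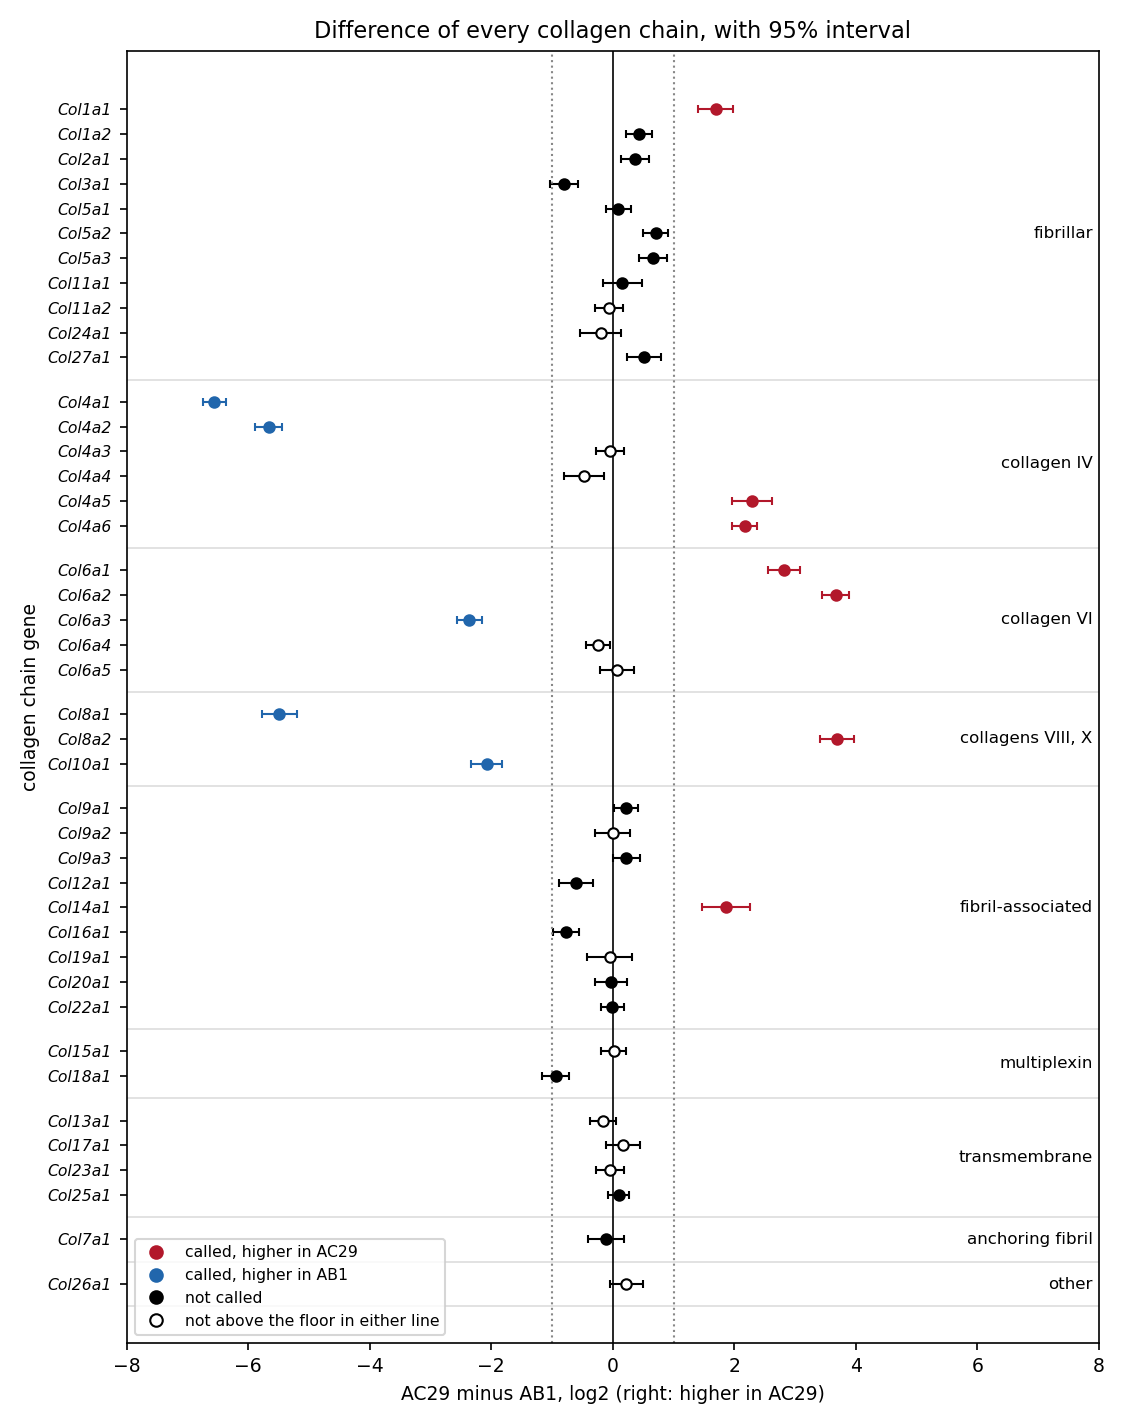
Difference AC29 minus AB1 in log2 (horizontal axis, right is higher in AC29) of all 42 collagen chains (vertical axis, grouped by the kind of collagen), with the 95% interval from limma as bars and dotted lines at -1 and 1. Red chains were called higher in AC29, blue ones higher in AB1, and open symbols were under the floor in both lines; collagen IV, VI and VIII each hold chains on both sides.

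Most fibrillar chains were above the floor in both lines, and by their brightest probe sets Col1a1 alone was called. Of 11 fibrillar chains, 9 were above the floor, 1 was called higher in AC29 and none was called higher in AB1, with a median difference of 0.37 over the 11. By limma with no fold minimum, 6 further fibrillar chains had an adjusted p under 0.05 (at this rule 22 of 42 chains passed, 52.4%, against 39.1% of all genes). Col1a1 encodes the main chain of collagen I. It read 13.01, 12.95 and 13.41 in AC29, against 11.35, 11.48 and 11.46 in AB1, 3.24-fold higher in AC29 (log2 difference 1.69, SE 0.127, adjusted p = 5.56e-06). Col1a2, its partner chain, read 13.86, 13.74 and 14.03 in AC29, against 13.48, 13.44 and 13.42 in AB1. The arrays did not overlap, but the difference of 0.43 (95% interval 0.22 to 0.65, adjusted p = 0.00511) was under the 2-fold minimum.

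Col5a1, Col5a2 and Col5a3 encode collagen V, which starts collagen I fibres and limits their width. Col5a1 read 11.20, 11.07 and 11.27 in AC29, against 11.05, 11.19 and 11.03 in AB1, with overlapping arrays and a difference of 0.09 (95% interval -0.12 to 0.30). Col5a2 read 13.24, 13.04 and 13.18 in AC29, against 12.42, 12.53 and 12.38 in AB1 (difference 0.71, adjusted p = 0.000191). Col5a3 averaged 7.03 ± 0.15 in AC29 and 6.37 ± 0.08 in AB1 (SD, n = 3), a difference of 0.66 that was also under the minimum. Col3a1, the chain of collagen III found in soft tissues and wounds, went the other way on its brightest probe set, with 11.90, 11.65 and 11.98 in AC29 and 12.62, 12.65 and 12.69 in AB1 (difference -0.81, 95% interval -1.04 to -0.58). Of the minor fibrillar chains, Col27a1 differed by 0.51 and the cartilage chain Col2a1 by 0.37, neither past the minimum. Col11a1 differed by 0.16 (95% interval -0.17 to 0.48) with overlapping arrays, and Col11a2 and Col24a1 were not above the floor.

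Probe sets of the same fibrillar gene gave differences of unequal size. The second probe set of Col1a1 read 11.85, 11.90 and 11.95 in AC29, against 8.29, 8.53 and 8.12 in AB1, a difference of 3.59 where the brightest gave 1.69. A second probe set of Col1a2 read 12.39, 12.36 and 12.44 in AC29, against 11.10, 11.05 and 11.07 in AB1, which passed the rule at 1.32 (adjusted p = 1.26e-06). Col5a2 gave 2.51 on its second probe set, and Col5a1 gave 1.13 and 1.09 on the others, all past the rule. For these 4 genes each dimmer probe set above the floor thus showed a larger excess in AC29 than the brightest one. The dimmest probe set of Col1a2 read 6.40, 7.74 and 5.87 in AC29 and differed by 1.51, with AC29 replicate 14 far above the others. Col3a1 changed direction: its dimmer probe set read 8.80, 8.33 and 8.44 in AC29, against 7.73, 7.78 and 7.74 in AB1, a difference of 0.77 (adjusted p = 0.000817), where the brightest gave -0.81. No direction is given for Col3a1 on that account. The cause of the disagreement was not tested.

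Over all chains, 18 other probe sets of 15 genes were above the floor, and 17 of them had the same sign as the brightest, Col3a1 being the exception. All 7 of these that belong to called chains passed the rule in the same direction. The other probe sets of Col14a1, under the floor in both lines, are not among them and did not pass (0.91 and 0.29). A probe set could enter by its brighter line alone, as the second of Col4a6 and the dimmest of Col8a1 did. The filter thus favours agreement. Of the 11 that belong to chains not called, 5 passed the rule, all of Col1a2, Col5a1 and Col5a2 and all higher in AC29. Over all 34945 single-symbol probe sets tested one by one, 10.3% passed.

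**Figure D3:**
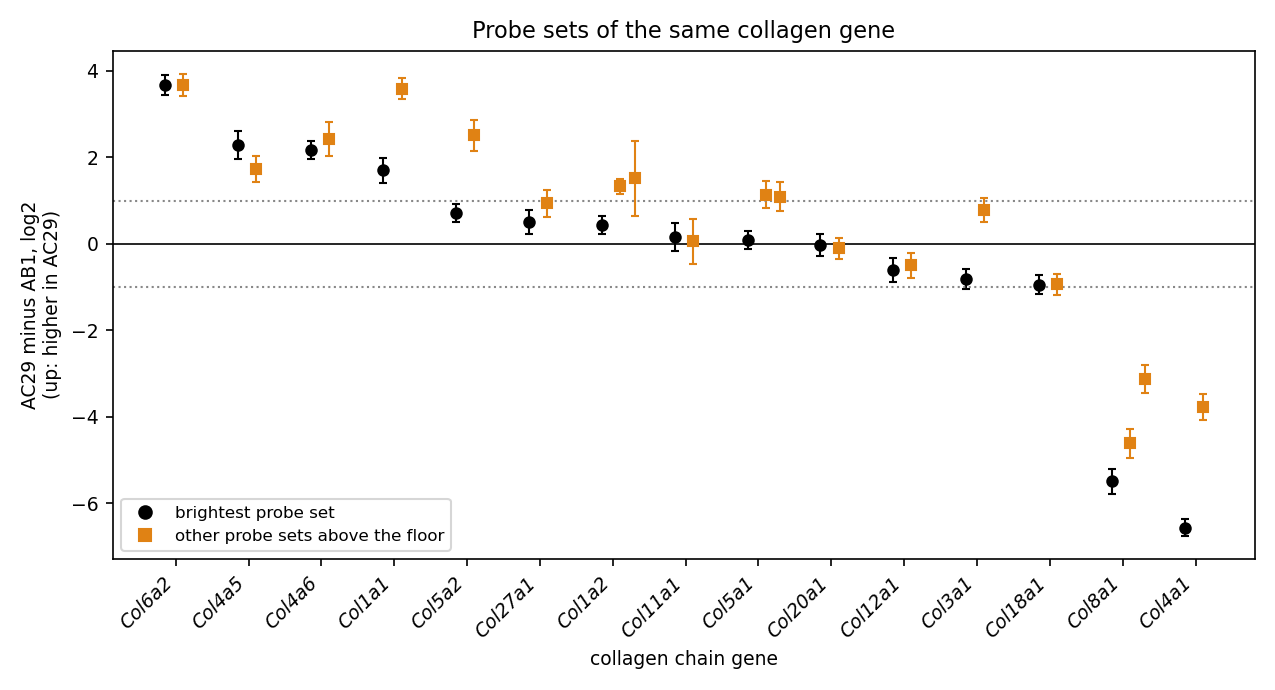
Difference AC29 minus AB1 in log2 (vertical axis, up is higher in AC29) for the 15 collagen genes with more than 1 probe set above the floor (horizontal axis), with the brightest probe set in black, the others in orange and the 95% interval as bars. The orange points of Col1a1, Col1a2, Col5a1 and Col5a2 stand above the black ones, and those of Col3a1 stand on opposite sides of 0.

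Among the fibril-associated collagens 1 of 9 chains was called. Col14a1, which binds fibrils in tendon and skin, read 7.13, 6.65 and 6.54 in AC29, against 5.00, 5.10 and 4.62 in AB1. AB1 was under the floor and AC29 near it, at least 1.62-fold higher (log2 difference 1.87, SE 0.174, adjusted p = 2.45e-05), and its other probe sets were under the floor in both lines and differed by 0.91 and 0.29. Col12a1 and Col16a1, also fibril-associated chains, were lower in AC29 without reaching the minimum. Col12a1 averaged 8.59 ± 0.24 in AC29 and 9.20 ± 0.07 in AB1 (difference -0.61, adjusted p = 0.00336), and Col16a1 8.28 ± 0.13 in AC29 and 9.06 ± 0.04 in AB1 (difference -0.77, adjusted p = 0.000135; SD, n = 3). Col18a1, a basement membrane collagen whose end fragment is endostatin, read 6.53, 6.56 and 6.80 in AC29, against 7.61, 7.60 and 7.51 in AB1. Its arrays did not overlap and its difference of -0.94 was just under the minimum (95% interval -1.16 to -0.72); without AC29 replicate 15 it was -1.03 and passed. Its second probe set gave -0.94 as well.

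A further 8 chains above the floor had an adjusted p of 0.05 or more in limma: Col5a1, Col7a1, Col9a1, Col9a3, Col11a1, Col20a1, Col22a1 and the transmembrane chain Col25a1. Their differences ran from -0.11 to 0.22, and their 95% intervals lay between -0.41 and 0.48. These limits hold for the brightest probe sets: the other probe sets of Col5a1 passed the rule at 1.13 and 1.09. Except for Col5a1 and Col11a1, whose brightest arrays passed 7.23, they did not exceed the 99th percentile for those receptors on any array. The 13 chains under the floor in both lines were Col4a3, Col4a4, Col6a4, Col6a5, Col9a2, Col11a2, Col13a1, Col15a1, Col17a1, Col19a1, Col23a1, Col24a1 and Col26a1, with values from 2.68 to 5.78 and differences of at most 0.47 in size. In all, 29 of 42 chains (69%) were above the floor in at least 1 line, against 64% of all genes.

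The genes that make, process, bind or degrade collagen were read from 6 lists with 79 genes, of which 73 were measured. In these lists 12 genes were called higher in AC29, 16 were called higher in AB1 and 45 were not called. That is 38.4% called against 10.9% of all genes. The lists were chosen with earlier results of these data known, so the choice may have shaped this contrast, which is not a test.

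In collagen maturation, hydroxylases of prolines differed by member. P4ha2, a subunit of the enzyme that makes 4-hydroxyproline, was higher in AC29 (10.74 ± 0.05 against 9.74 ± 0.27 in AB1), and P4ha3 was lower (6.06 ± 0.10 against 7.14 ± 0.19 in AB1; SD, n = 3). The P4ha2 difference was just over the minimum and fell under it without AC29 replicate 14 (0.993), without AC29 replicate 15 (0.985) and without AB1 replicate 6 (0.85), and also with the arrays centred on their medians (0.984) or weighted (0.97). Of the 3-hydroxylase family, P3h4, a member with no enzyme activity that serves lysine hydroxylation, was 5.32-fold higher in AC29 (11.48 ± 0.18 against 9.07 ± 0.03 in AB1). P3h1, the enzyme of fibrillar collagen, was 2.05-fold higher in AC29, but its log2 difference was under the minimum without AB1 replicate 6 (0.984), on the mean of its probe sets (0.93) and on a probe set without a cross-hybridisation suffix (0.81). P3h2 and P3h3 were lower in AC29: P3h3 averaged 5.56 ± 0.21 in AC29 and 8.23 ± 0.17 in AB1, a gap of at least 4.46-fold, and P3h2 5.95 ± 0.27 in AC29 and 7.69 ± 0.08 in AB1. P3h2 is known to act on collagen IV. In all, 3 of 18 measured genes of the list were called higher in AC29, 3 higher in AB1 and 12 not called, with a median difference of 0.20. The brightest genes not called were Sparc, which binds collagen (difference 0.91, 95% interval 0.69 to 1.13), and P4hb, the shared subunit of the prolyl hydroxylases (0.44, 95% interval 0.26 to 0.62).

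Limma called none of the 8 genes for export of procollagen from the endoplasmic reticulum, of which 3 had an unadjusted p under 0.05. Over all genes 10.9% were called and 45.2% had an unadjusted p under 0.05. With 8 genes these counts are near those shares and are not read as particular to export. The coat protein Sec13 differed by 0.62 and the coat GTPase Sar1b by 0.03, with a larger spread in AC29 (SD 0.42 in AC29 and 0.02 in AB1). Processing and crosslinking genes differed in both directions. The protease Bmp1, which trims the end of procollagens, was 2.17-fold higher in AC29 (0.82 in log2 on the mean of its probe sets) and its enhancer Pcolce2 2.54-fold, while the enhancer Pcolce differed by -0.60. The crosslinking enzyme Tgm2, a transglutaminase, was 10.3-fold higher in AC29 (9.84 ± 0.33 against 6.48 ± 0.22 in AB1; SD, n = 3). The lysyl oxidases Loxl1, Loxl3 and Loxl4, which crosslink collagen and elastin, were lower in AC29: Loxl3 averaged 8.28 ± 0.14 in AC29 and 11.02 ± 0.06 in AB1, 6.64-fold, and Loxl4 6.92 ± 0.15 in AC29 and 8.71 ± 0.12 in AB1. Lox itself differed by 0.77 toward AC29, under the minimum. Pxdn, the peroxidase that crosslinks collagen IV, averaged 5.28 ± 0.37 in AC29 and 9.09 ± 0.27 in AB1, or at least 8.11-fold more in AB1. This was the direction of Col4a1 and Col4a2 and the opposite of that of Col4a5 and Col4a6. The list had 3 of 12 measured genes called higher in AC29, 4 higher in AB1 and 5 not called, with a median difference of -0.044.

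**Figure D4:**
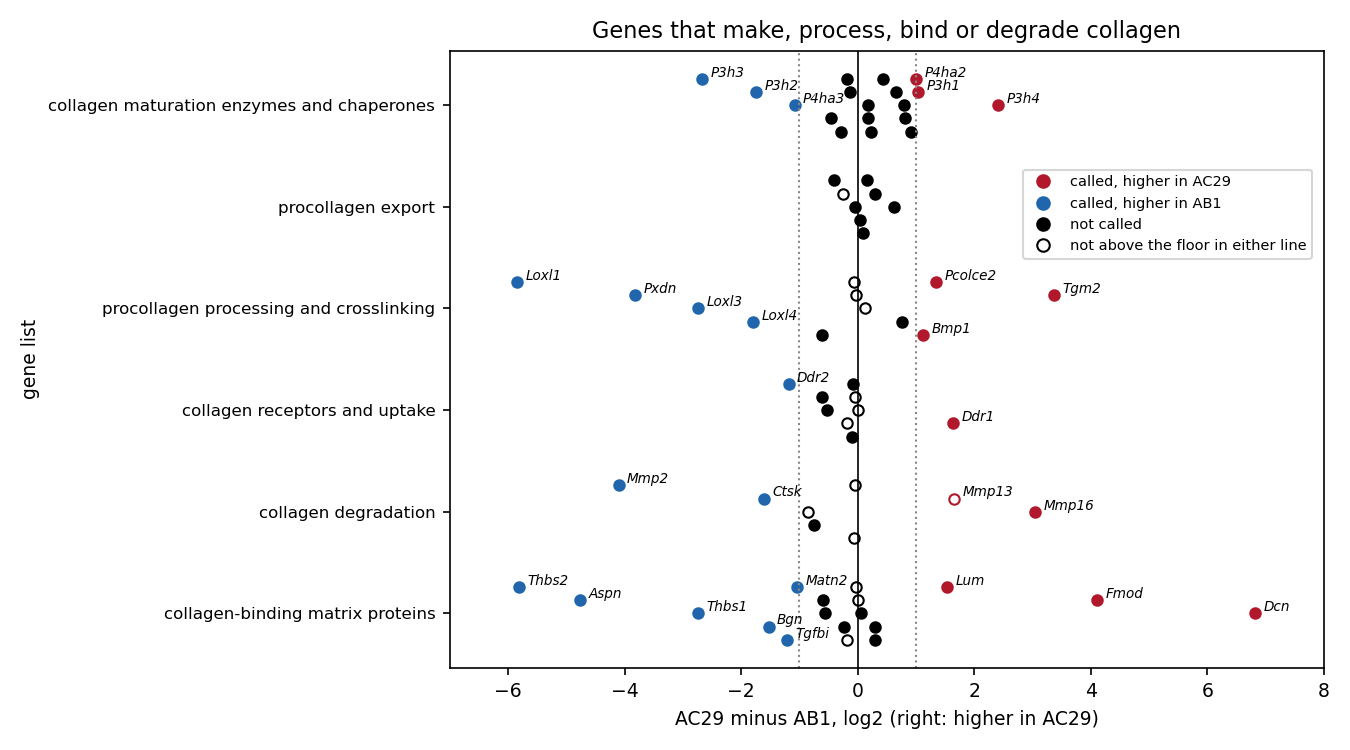
Difference AC29 minus AB1 in log2 (horizontal axis, right is higher in AC29) of 73 measured genes in 6 lists (vertical axis), with called genes named in red (12, higher in AC29) or blue (16, higher in AB1), genes not called in black and genes under the floor in both lines open. No gene of the 8 in the export list passes the dotted lines at -1 and 1, where 10.9% of all genes were called.

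The collagen-sensing receptor kinases were opposite. Ddr1, found mainly in epithelia, was 3.11-fold higher in AC29 (11.48 ± 0.28 against 9.85 ± 0.05 in AB1), and Ddr2, found mainly in mesenchyme, was 2.27-fold lower in AC29 (9.05 ± 0.24 against 10.23 ± 0.10 in AB1; SD, n = 3). These were the called genes among 9 receptors measured; the integrin chain Itgb1 differed by -0.53 and the uptake receptor Mrc2 by -0.61, and the median difference was -0.11. Among 8 degradation genes, the membrane protease Mmp16 exceeded its AB1 level at least 4.37-fold in AC29, while the cysteine protease Ctsk was 3.06-fold lower in AC29 (7.58 ± 0.11 against 9.19 ± 0.02 in AB1). The gelatinase Mmp2 was lower in AC29 too, Mmp13 was called higher in AC29 but was under the floor in both lines, and the median over the 8 was -0.41. Mmp14 (difference -0.76) and Mmp9 (-0.05) were not called.

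Of 18 matrix proteins that bind collagen, 3 were called higher in AC29, 6 higher in AB1 and 9 not called, with a median difference of -0.21. The small proteoglycans that bind fibrils were on both sides. Fmod averaged 9.19 ± 0.27 in AC29 and 5.08 ± 0.37 in AB1 (SD, n = 3), so that by this probe set AC29 exceeded AB1 at least 8.68-fold. Its log2 difference of 4.11 ran from 2.79 to 6.34 when each array was left out in turn and another of its probe sets became the brightest, and from 3.92 to 4.30 with the probe set kept. Dcn averaged 12.81 ± 0.07 in AC29 and 5.98 ± 0.15 in AB1, and Lum was also higher in AC29, with 1 AC29 array above the floor. Aspn averaged 3.43 ± 0.32 in AC29 and 8.20 ± 0.18 in AB1, a gap of at least 4.37-fold, and Bgn was 2.88-fold lower in AC29. The thrombospondin Thbs1 was 6.67-fold lower in AC29 (9.48 ± 0.15 against 12.22 ± 0.04 in AB1), and Thbs2 was lower as well. Tgfbi was called lower in AC29 with 1 AB1 array above the floor. Matn2 was also called lower in AC29, at -1.03, but not without AC29 replicate 14 (-0.75), without AB1 replicate 5 (-0.998), on the mean of its probe sets (-0.89), on its suffix-free probe set (-0.75) or with array weights (-0.84). Fibronectin (Fn1), 12.80 ± 0.23 in AC29 and 13.04 ± 0.11 in AB1, and the basement membrane linker Nid1, with a difference of -0.55, were the brightest not called.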

How the data were processed

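Total RNA from 3 flasks of each line was labelled as biotinylated cRNA and hybridised to Affymetrix arrays, per the labels' protocols. Deposited values were in log2, with 45101 probe sets on each array. GCOS, RMA and Partek 6.4 appear in the submitters' processing notes, without their roles; the log2 scale was taken from these notes and the range of the values. RMA subtracts a modelled background, makes the arrays' distributions equal and combines probes. It can understate differences of very dim or very bright genes.

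Symbols (64 control probe sets aside) were those of the platform annotation, with 1 for 34945 probe sets, several for 932 and none for 9160. Of the first, 34741 matched the RefSeq gene table (GRCm38.p6) by Entrez identifier and 0 symbols were changed; that table was used for names, chromosomes and gene order. A gene took its brightest single-symbol probe set, giving 18193 genes. The difference between lines was estimated for every probe set except controls by limma 3.58.1 under R 4.3.3, using lmFit and eBayes with 2-sided tests (4 residual and 8.92 moderated degrees of freedom). Benjamini-Hochberg adjustment covered all 18193 genes. Where no array of the dimmer line exceeded the floor, folds were computed against the floor as lower bounds. The fit was tested on simulated data. The members and gene lists were chosen with earlier results of these data known. Called chains and chains above the floor were described by array, the other chains by range, and in each list the called genes and the 2 brightest not called were named. Alternatives were other normalizations, probe set choices, a filter on dim genes, variance models, array weights, thresholds, floors and leaving out each array; testing every probe set on its own, and leaving out arrays with the probe set kept for Col4a1 and Fmod, were added after the data were seen. Arrays have no sequencing depth, and their number sets the precision.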

Additional observations from a re-analysis of the deposited data

How the results depend on the processing

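No paired analysis was possible because the lines share no replicate number. The 7 chains called higher in AC29 and 5 higher in AB1 became 12 and 10 with no fold minimum. With no fold minimum, all genes gave 3475 toward AC29 and 3630 toward AB1, and the collagen pathway genes 22 and 26. Limma's treat against a 2-fold difference gave 565 and 672 over all genes, and 7 and 5 chains. With the floor at the 99th percentile, 14 chains were above it in AC29 and 17 in AB1, where the 95th gave 25 and 27. Leaving out each array in turn gave 7 chains higher in AC29 every time and 5 to 6 higher in AB1. Col4a1 and Fmod moved by over 1.5 times in fold there, where another of their probe sets became the brightest. Of 432 values for 29 chains under the alternatives, 409 kept their direction and their side of the rule. Col14a1 lost its call on probe sets without a cross-hybridisation suffix (0.91). Col1a2 (1.09) and Col5a2 (1.61) gained one on the mean of their probe sets. Col3a1 changed sign on its suffix-free probe set (0.77). The cause of these changes was not tested. The other changes of sign were of chains near 0: Col25a1 on the mean of its probe sets (-0.046), Col9a1 on its suffix-free probe set (-0.062), Col22a1 with array weights (0.012), and, leaving out each array in turn, Col22a1 (-0.040 to 0.024), Col20a1 (-0.12 to 0.086) and Col7a1 (-0.20 to 0.030). Of 593 values for 40 pathway genes, 557 were the same in this sense, and 6 changed sign: Sar1b (-0.066 with array weights, -0.20 to 0.20 leaving out arrays) and Mmp9 (0.016 on the mean of its probe sets, -0.18 to 0.028 leaving out arrays). Bmp1, Ddr2, Matn2, P3h1, P4ha2, P4ha3 and Tgfbi did not pass treat. Values near the floor, as of Col10a1 and Col14a1, limit what can be said of them.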
